A study of Mus musculus with 16 samples.

Results

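The somatosensory cortex of staggerer mice was compared with that of control mice on 8 microarrays with a Cy3 and a Cy5 channel, of 16 arrays in the series. All arrays labelled as cortex were taken. Each array set staggerer mutant RNA (written Stagerrer in the labels) against control RNA of the same numbered litter. The mice were on the C57BL/6 strain and were taken at postnatal days 5 to 6. There were 4 litters, each hybridised on an array with staggerer RNA in Cy5 and control RNA in Cy3 and on another with the dyes swapped, so the litter was the replicate. The labels state neither the number nor the sex of the animals behind an RNA, whether the mutants were homozygous, or the Rora genotype of the controls. The other 8 arrays made the same comparison in the ventrobasal nucleus of the thalamus (VB). Arrays of ratios hold no expression level, so the dissected tissue could not be checked by the level of its markers.

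Staggerer mice carry a deletion in Rora, which encodes the nuclear receptor RORα. This receptor binds DNA at the half-site AGGTCA, usually behind a stretch rich in A and T, and it is known best from cerebellar Purkinje cells, which fail to mature in staggerer. In the first postnatal week, whisker signals reach layer 4 of the somatosensory cortex through thalamic axons, and these axons and their target neurons gather into barrels. Rora is expressed in thalamic relay neurons and in layer 4 neurons at that age.

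The deposited values were normalized log ratios, taken as log2 although the base is not stated. Each cortex array held 19633 to 22580 values out of 24107 probes, with a median between -0.003 and 0.003 and an interquartile range of 0.384 to 0.554. Because of the swap, each value can be read in 1 of 2 ways. If the authors had already turned the columns to run one way, the mean of a litter's arrays is the genotype ratio and a constant dye effect cancels in it. If the columns are Cy5 over Cy3, the genotype ratio, staggerer over control, is the array with staggerer RNA in Cy5 minus the array with control RNA in Cy5, divided by 2, and the mean of the pair holds the dye effect. Both readings are given below. Under the first, it is not stated which RNA is the numerator, so a ratio is called only positive or negative, without a direction in staggerer. Under the second, a negative ratio means lower in staggerer.

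The arrays themselves did not settle the reading. Across probes, the swapped arrays of a litter had Spearman correlations of -0.0340, -0.0338, -0.0068 and 0.0108 in litters 1 to 4. Arrays with the same dye assignment correlated at 0.0575 to 0.236, and arrays that differed in both litter and dye assignment at -0.104 to -0.0111. The swapped arrays of a litter were also compared as deviations, after subtracting the mean of the other litters' arrays with the same dye assignment. These deviations correlated at 0.0314, 0.0131, 0.0576 and 0.1279 in litters 1 to 4. Positive values go with turned columns and negative ones with Cy5 over Cy3, but all were small. These are correlations across probes, which are not independent replicates. Transcripts of the sex chromosomes gave a check on single litters, since a difference in sex within a litter keeps its sign across the swap if columns were turned and changes it if they follow the dyes. Xist, the RNA that silences an X chromosome in females, had log2 ratios of -2.46, -2.03, -0.21 and -0.24 in litters 1 to 4 with staggerer RNA in Cy5. With control RNA in Cy5 it had -1.28, -0.33 and -0.61 in litters 2 to 4, with no value in litter 1. It was thus negative on all 7 arrays. Kdm5d, a histone demethylase gene of the Y chromosome chosen after its values were seen, stood at 0.62 and 0.48 on the swapped arrays of litter 2 and at -0.17 and -0.37 on those of litter 4, again with the same sign within a litter. Uty, another Y-linked gene chosen the same way, did not keep its sign in litter 3, with -0.42 and 0.30, or in litter 4, with -0.033 and 0.16. Eif2s3y, also Y-linked and chosen the same way, had -0.33 and -0.64 in litter 1, where Kdm5d was positive, and changed sign in litter 4, with 0.046 and -0.18. In litter 4, Xist and Kdm5d were both negative on both arrays. The part that sex plays in the ratios below was not tested.

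Read as deposited, 10 of 16521 features (genes, or probes with no symbol) with a value in at least 3 litters passed limma at an adjusted p under 0.05, which is 0.0605%. Of these, 3 had a positive ratio (0.0182%) and 7 a negative ratio (0.0424%), and 1 was a probe with no gene symbol. They were genes of proteins with roles in neurons (Sema7a, Hpca, Sncb, Rgs4), of the cytoskeleton (Cyria, Stmn1, Smtn), of the astrocyte gap junction (Gja1) and of citrate transport (Slc25a1). The share of such genes among all features was not counted. In all, 1305 features (7.90%) had an unadjusted p under 0.05. The 10 had the same sign in every litter with both arrays. In the means of both dye assignments 8 had the same sign, against 46.5% of all features. The calls were made on these same values, so such agreement is in part built into them. Quantile normalization gave 7 calls, 6 of them among the 10, split as 1 positive and 6 negative, and scaling the arrays to one spread gave 10, split as 1 and 9. A fit of the 8 arrays with litter as a replicate block called 3 of the 10, namely Gja1, Cyria and Rgs4. With unpaired arrays kept, 2 features were called, and 0 of them were among the 10.

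**Figure D1:**
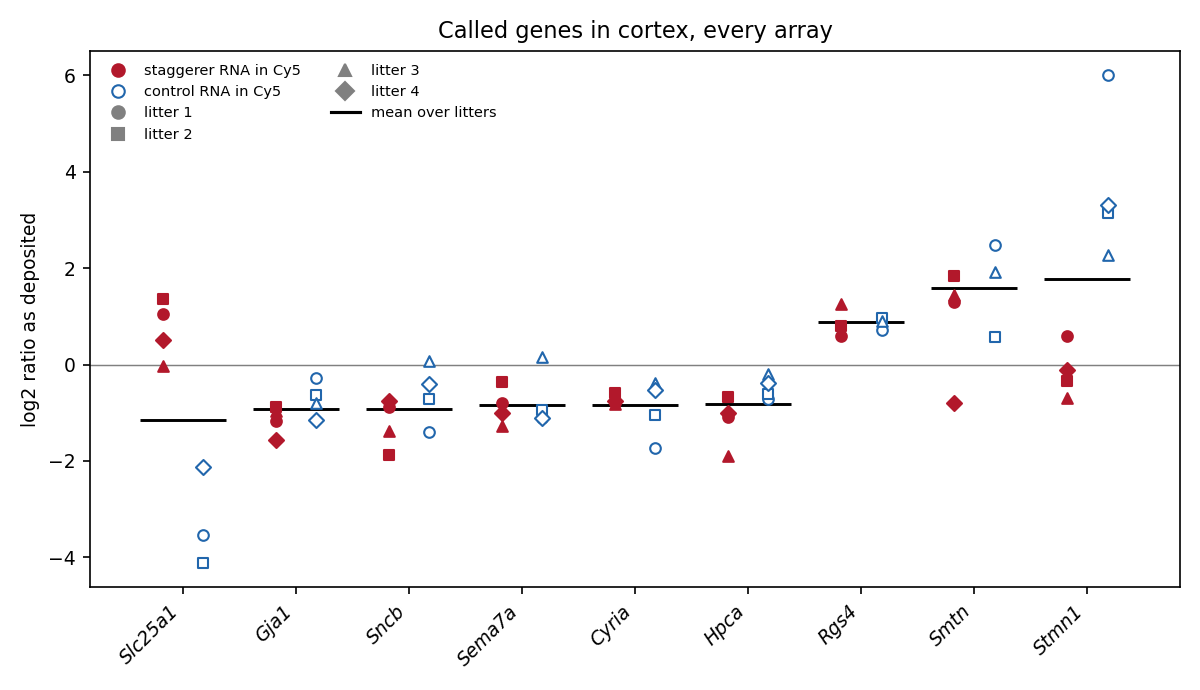
Log2 ratios as deposited for the 9 called genes with a symbol on every cortex array, with arrays that carry staggerer RNA in Cy5 as filled red symbols on the left of each gene and arrays that carry control RNA in Cy5 as open blue symbols on the right. Symbol shape gives the litter and the bar the mean over litters. Gja1, Hpca and Cyria lie below 0 on all 8 arrays and Rgs4 above 0 on all 6 with a value, whereas Slc25a1 and Stmn1 separate by dye assignment.

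Sema7a encodes a semaphorin held in the membrane by a lipid anchor, which promotes axon growth through integrins and is required for normal barrels in mice. The mean of its 2 probes was -0.79, -0.37, -1.28 and -1.01 in litters 1 to 4 with staggerer RNA in Cy5. With control RNA in Cy5 it was -1.11, -0.95, 0.15 and -1.10. It was negative on 7 of 8 arrays, and the exception was litter 3, where 1 of the probes had no value. The litter values averaged -0.84 ± 0.19 (SD, n = 4; 0.557-fold; limma adjusted p = 0.0174), and the probes averaged -0.79 and -0.96. Over the 237 genes with 2 probes, the probes had the same sign in 49.4% as deposited (Spearman correlation across genes 0.051) and in 54.4% as Cy5 over Cy3 (0.122), so probes of a gene often differed.

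Hpca encodes hippocalcin, a neuronal calcium sensor. Its log2 ratios were -1.10, -0.67, -1.89 and -1.01 with staggerer RNA in Cy5 and -0.72, -0.60, -0.20 and -0.38 with control RNA in Cy5, in litters 1 to 4. All 8 were negative, and the arrays with staggerer RNA in Cy5 lay farther from 0 in every litter. The litter mean was -0.82 ± 0.19 (SD, n = 4; limma adjusted p = 0.0174).

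The bases upstream of the starts of these genes are shown because RORα, the factor mutated in staggerer, binds AGGTCA. Windows of 250 bases before each annotated start were read from RefSeq sequences of build GRCm38.p6. The letters AGGTCA, searched on both strands, stood in 4607 of 32851 windows of this length (14.0%). Of the 9 called genes with a symbol, 8 had an entry, with 10 windows, and 1 window, at the most upstream of 3 Hpca starts, held the letters. It lies inside the annotated span of Hpca, which runs from 129111570 to 129125919 on chromosome 4. The Sema7a window, with no match, lies wholly inside the annotated span of that gene, 57939596 to 57962865 on chromosome 9. Capitals mark AGGTCA.
Hpca upstream window, chr4:129121748-129121997, minus strand: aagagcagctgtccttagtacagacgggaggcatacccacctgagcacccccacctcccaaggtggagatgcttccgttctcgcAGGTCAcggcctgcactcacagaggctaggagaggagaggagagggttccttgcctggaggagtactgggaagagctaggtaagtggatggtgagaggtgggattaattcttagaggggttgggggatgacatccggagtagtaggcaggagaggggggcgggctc
Sema7a upstream window, chr9:57939862-57940111, plus strand: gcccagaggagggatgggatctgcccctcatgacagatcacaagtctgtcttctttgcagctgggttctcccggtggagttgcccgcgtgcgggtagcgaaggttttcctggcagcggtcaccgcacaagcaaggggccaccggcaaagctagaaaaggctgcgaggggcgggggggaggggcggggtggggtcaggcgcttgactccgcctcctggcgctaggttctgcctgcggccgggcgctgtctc
A match is a description of letters and not a site of binding.

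Sncb encodes β-synuclein, a protein of presynaptic terminals. It had log2 ratios of -0.87, -1.87, -1.38 and -0.76 with staggerer RNA in Cy5, and -1.39, -0.71, 0.07 and -0.41 with control RNA in Cy5. The array of litter 3 with control RNA in Cy5 was again the exception among 8, and the litter mean was -0.91 ± 0.35 (SD, n = 4; limma adjusted p = 0.0250). Rgs4, which encodes a protein that shortens G protein signals in neurons, differed least between dye assignments among the 3 positive genes. It had 0.59, 0.79 and 1.26 in litters 1 to 3 with staggerer RNA in Cy5 and 0.71, 0.97 and 0.91 with control RNA in Cy5, with no value in litter 4. Its mean was 0.87 ± 0.21 (SD, n = 3; 1.83-fold; limma adjusted p = 0.0441).

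Cyria, whose protein binds Rac and restrains actin branching, had -0.80, -0.59, -0.81 and -0.75 with staggerer RNA in Cy5 and -1.73, -1.04, -0.38 and -0.54 with control RNA in Cy5. All 8 values were negative and those with staggerer RNA in Cy5 lay close together. The mean was -0.83 ± 0.30 (SD, n = 4; limma adjusted p = 0.0341). Gja1 encodes connexin 43, the main gap junction protein of astrocytes. It had -1.18, -0.89, -0.96 and -1.57 with staggerer RNA in Cy5 and -0.27, -0.63, -0.81 and -1.16 with control RNA in Cy5. Litter 4 was lowest in both assignments, and the mean was -0.93 ± 0.30 (SD, n = 4; limma adjusted p = 0.0174).

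The other called genes, Smtn, Stmn1 and Slc25a1, depended on the dye assignment or, like Rgs4, lacked a litter. Smtn, which encodes smoothelin of smooth muscle, had the lowest adjusted p, at 1.59 ± 0.35 (SD, n = 3; 3.01-fold; limma adjusted p = 0.00273). Its arrays had 1.30, 1.84 and 1.44 with staggerer RNA in Cy5 and 2.47, 0.57 and 1.93 with control RNA in Cy5 in litters 1 to 3. In litter 4, which did not enter the mean because the swapped array had no value, the array with staggerer RNA in Cy5 had -0.80. Stmn1, which encodes the microtubule-destabilising protein stathmin of growing neurons, had 0.58, -0.34, -0.70 and -0.12 with staggerer RNA in Cy5, against 6.00, 3.14, 2.27 and 3.30 with control RNA in Cy5. The assignments did not overlap, and its mean of 1.77 ± 1.07 (SD, n = 4; limma adjusted p = 0.0441) came from the arrays with control RNA in Cy5. Slc25a1, the mitochondrial citrate carrier gene, averaged 0.72 with staggerer RNA in Cy5, against -3.26 with control RNA in Cy5, so that its mean of -1.14 ± 0.30 (SD, n = 3; limma adjusted p = 0.0174) is taken over opposite signs. Stmn1, Slc25a1 and the probe with no symbol were the 3 features called in both readings.

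The number of calls turned on single litters. There were 0 calls without litter 1 or without litter 2, 5 without litter 3 and 98 without litter 4, with all 3 remaining litters required. Without litters 1 and 2, 713 and 794 features had an unadjusted p under 0.05. Sema7a, Gja1, Hpca, Sncb and Cyria each lost the call without litter 1, 2 or 3, and Stmn1 without litter 1 or 2. Rgs4 and Stmn1 lost it under quantile normalization and under scaling to one spread, and Slc25a1 under quantile normalization. Across those fits and the other alternatives, Sema7a remained between -0.91 and -0.75, Hpca between -1.17 and -0.48, and Gja1 between -1.15 and -0.72. Their highest adjusted p values were 0.159, 0.298 and 0.129.

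Rora itself did not pass. The Rora probe had -0.58, -0.44 and -0.73 in litters 1, 3 and 4 with staggerer RNA in Cy5, and 0.26, -0.32, -0.76 and -0.47 in litters 1 to 4 with control RNA in Cy5. It was negative on 6 of 7 arrays, and the exception was litter 1. The mean over the 3 complete litters was -0.45 ± 0.26 (SD, n = 3; limma adjusted p = 0.358). Where the probe lies relative to the deletion is not known here, so it is no check of the labels.

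Gene lists were then described by their medians and counts beside the same for all features, whose median was -0.003, with 49.1% positive, 3.87% positive at an unadjusted p under 0.05 and 4.03% negative at that level. The layer 4 list had a median of -0.25 over 12 members tested of 17. In it, 8 members were negative and 4 positive, and at an unadjusted p under 0.05 there were 6 negative members and 1 positive, with 0 called by limma after adjustment. The medians of the litters ran from -0.30 to -0.11. The median was -0.16 with staggerer RNA in Cy5, against -0.31 with control RNA in Cy5, and leaving out a litter gave -0.31 to -0.19.

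**Figure D2:**
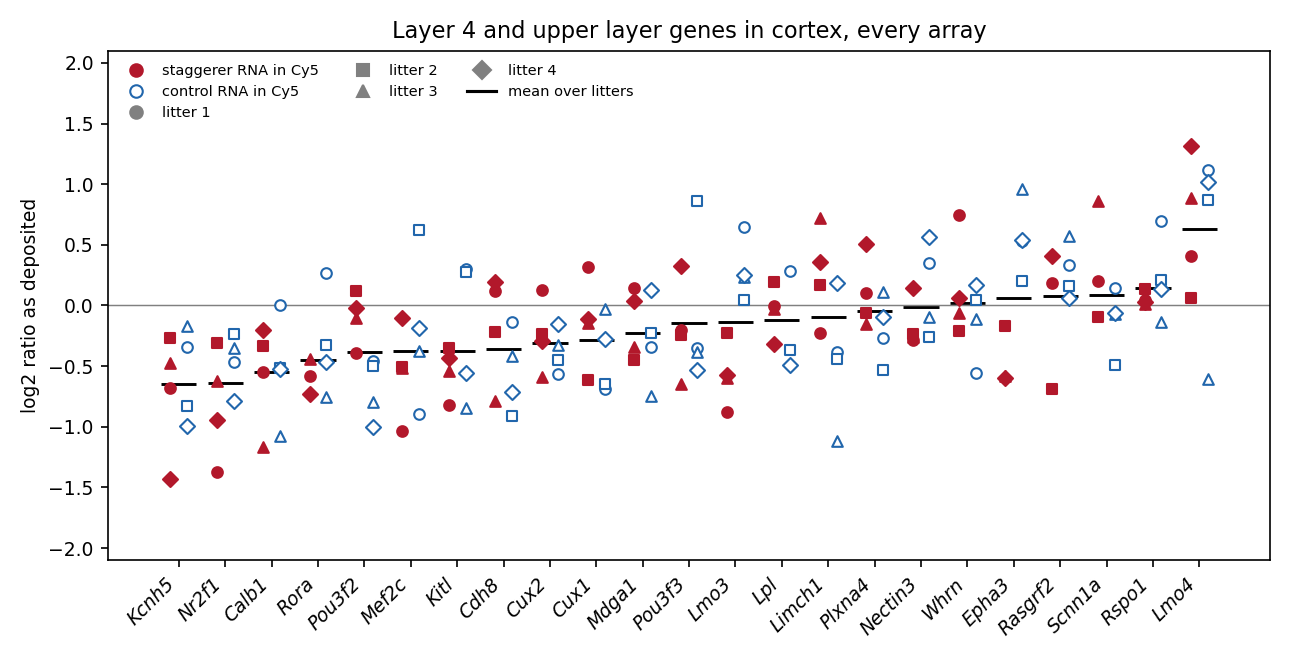
Log2 ratios as deposited on each cortex array for the tested genes of the layer 4 and upper layer lists, ordered by mean, with staggerer RNA in Cy5 in filled red symbols and control RNA in Cy5 in open blue symbols. Kcnh5 and Nr2f1 lie below 0 on all 8 arrays, and Lmo4 lies above 0 on 7 of 8.

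Kcnh5, which encodes a potassium channel marking layer 4, had -0.68, -0.27, -0.47 and -1.43 with staggerer RNA in Cy5 and -0.34, -0.83, -0.17 and -0.99 with control RNA in Cy5. It was negative throughout, lowest in litter 4, at -0.65 ± 0.39 (SD, n = 4; limma adjusted p = 0.159). Nr2f1 encodes COUP-TFI, a nuclear receptor that patterns cortical areas and sensory cortex. It had -1.38, -0.31, -0.62 and -0.94 with staggerer RNA in Cy5 and -0.47, -0.24, -0.35 and -0.79 with control RNA in Cy5. Its mean was -0.64 ± 0.31 (SD, n = 4; limma adjusted p = 0.131), again negative on every array. Rora, the cadherin gene Cdh8 (-0.36) and the homeobox genes Cux2 (-0.31) and Cux1 (-0.28) were the other negative members at an unadjusted p under 0.05. The 2 Cux2 probes averaged -0.09 and -0.53, and Cux1 stood at -0.16 without litter 2. Lmo4, which encodes a LIM-domain cofactor of cortical patterning, was the positive one, at 0.63 ± 0.44 (SD, n = 4; limma adjusted p = 0.191).

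The upper layer list shares Cux1, Cux2 and Lmo4 with the layer 4 list. It had 11 negative and 3 positive members among 14 tested, with a median of -0.13, and 6 negative and 1 positive at an unadjusted p under 0.05. Its median was -0.30 without litter 2, -0.31 without litter 4 and -0.28 over members with all 4 litters, where the layer 4 median was -0.19, -0.31 and -0.25. Calb1, the calcium buffer calbindin, stood at -0.55, the POU-domain gene Pou3f2 at -0.38, and the transcription factor gene Mef2c and the Kit ligand gene Kitl at -0.37 each. Mef2c stood at -0.18 without litter 1 and Calb1 at -0.35 without litter 3. Deep layer genes had a median of -0.004, with 5 positive and 5 negative among 10 tested and 1 past that level. Thalamus genes, which would mark tissue from outside the cortex, had a median of 0.001 over 17 members with 0 past that level in either direction. Striatum and hippocampus genes had a median of -0.05 over 14 members, with 2 negative past that level, Calb1 and the dentate gyrus gene C1ql2 (-0.49), and choroid plexus and meninges genes one of 0.03 over 16 members, with 1 negative, the collagen gene Col1a2 (-0.61). Blood genes were negative in 7 of 8 members tested, with a median of -0.19. The part of blood or of neighbouring tissue in the other ratios was not tested.

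**Figure D3:**
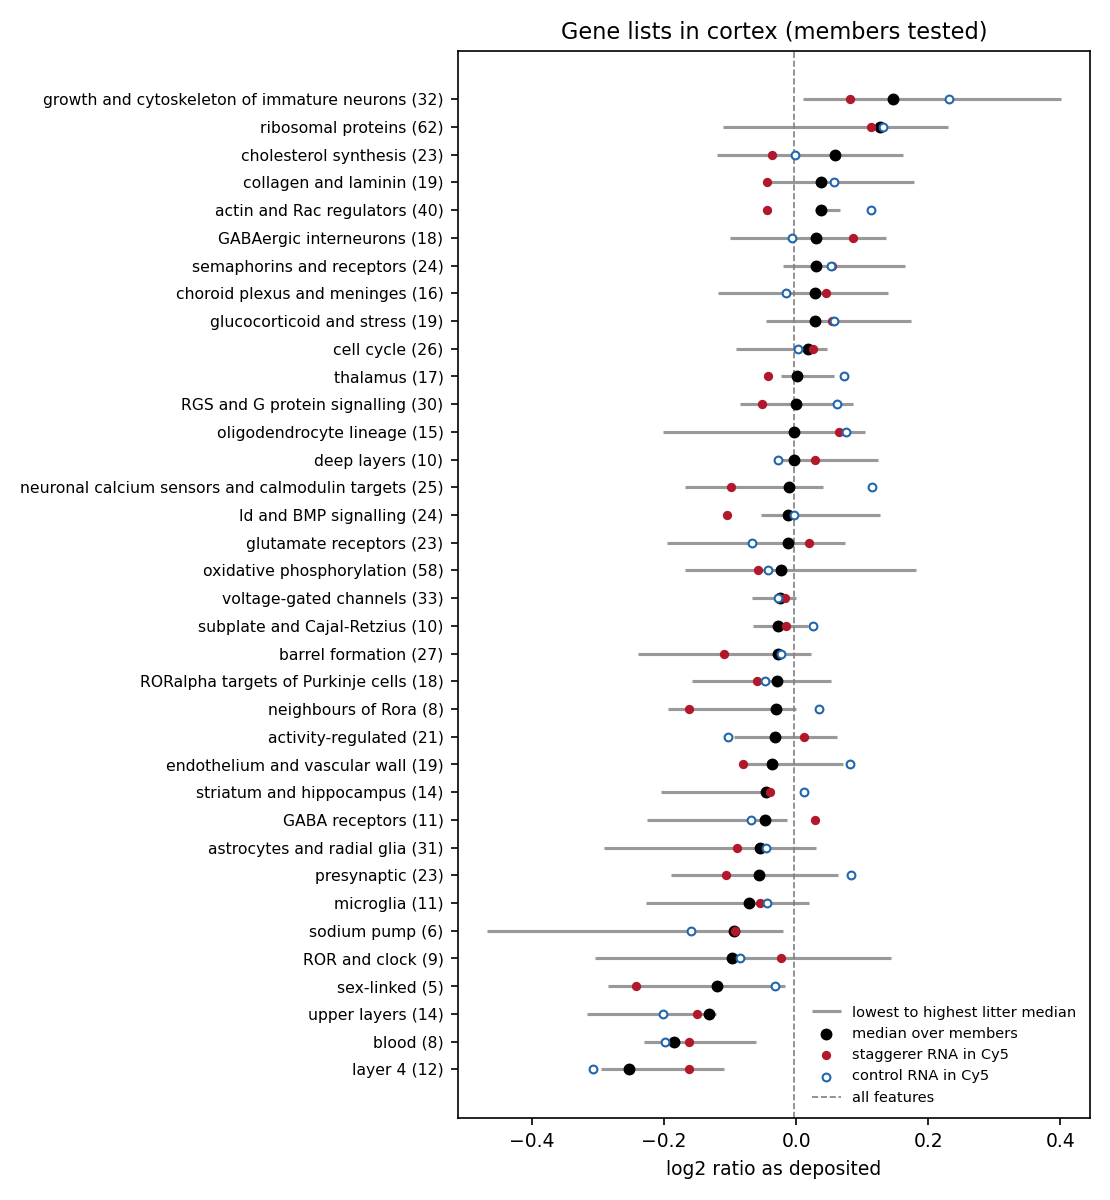
Median log2 ratio as deposited of each gene list in cortex (black), with the lowest to highest litter median as a grey line, the median of arrays with staggerer RNA in Cy5 in red and of those with control RNA in Cy5 in open blue, and the number of members tested after the name. Layer 4, at -0.25, and upper layers, at -0.13, are toward the low end and immature neuron genes, at 0.15, and ribosomal proteins, at 0.13, are at the high end, while all features have -0.003 (dashed line).

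At the other end stood genes of growth and the cytoskeleton in immature neurons, with a median of 0.15 and 23 positive of 32 tested. Stmn1 was called, and 11 positive members and 1 negative had an unadjusted p under 0.05. Among these were Neurod6, a transcription factor gene of young excitatory neurons (0.80), Cd24a, a surface glycoprotein gene of immature neurons (0.59), Tubb2a and Tubb3, which encode neuronal tubulins (0.55 and 0.54), and Stmn2, a stathmin of growth cones (0.52). Neurod6 stood at 0.43 without litter 4. Fabp7, described below with the glia genes, was also among the 11. Crmp1 (0.58) stood at 0.19 without litter 3, and Tuba1a (0.37) at 0.21 without litter 3 and 0.56 without litter 4. Without litters 1, 2, 3 and 4 in turn the list median was 0.13, 0.21, 0.13 and 0.15. The negative member was Sox4 (-0.37), a transcription factor gene of neuronal differentiation. Tubb3 had 1.42, 1.11, 1.24 and 0.13 with staggerer RNA in Cy5 and -0.16, -0.15, 0.16 and 0.56 with control RNA in Cy5, so the high values were those of litters 1 to 3 in one assignment. The list median was 0.08 with staggerer RNA in Cy5, against 0.23 with control RNA in Cy5. As Cy5 over Cy3 the direction of the list turned, with a median of -0.10 and 1 positive and 9 negative members at an unadjusted p under 0.05.

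Ribosomal protein genes were positive in 48 of 62 members tested, with a median of 0.13, and 14 positive and 1 negative had an unadjusted p under 0.05, with 0 called after adjustment by limma. Rplp1, of the ribosomal stalk, had 0.27, 0.73, 0.36 and 0.46 with staggerer RNA in Cy5 and 0.72, 0.24, 1.52 and 0.06 with control RNA in Cy5, positive on all 8 arrays (0.55 ± 0.29; SD, n = 4; limma adjusted p = 0.170). Rps29, of the small subunit, was also positive on all 8, at 0.54. The list medians of the dye assignments were 0.11 with staggerer RNA in Cy5, against 0.13 with control RNA in Cy5, but those of the litters ran from -0.11 to 0.23. Without litters 1, 2, 3 and 4 in turn the median was 0.08, 0.18, 0.12 and 0.10, and 6, 18, 5 and 11 positive members had an unadjusted p under 0.05.

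Genes tied to barrel formation had a median of -0.03 over 27 tested, but of -0.15 without litter 1, -0.08 without litter 2, -0.19 without litter 4 and -0.16 over members with all 4 litters. Sema7a was called, and 6 negative members and 1 positive had an unadjusted p under 0.05. The negative ones included the transcription factor gene Neurod1 (-0.68), Nr2f1, the NMDA receptor subunit gene Grin1 (-0.38) and the adenylyl cyclase gene Adcy8 (-0.25), and the positive one was the phospholipase gene Plcb1 (0.29). Neurod1 rested on litter 4, with -0.82 and -2.77 there, while the litter means of the other litters with both arrays were -0.02 and -0.21.

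Astrocyte and radial glia genes were mixed. Of 31 tested, 20 were negative and 11 positive. Beside Gja1, the lipid carrier gene Apoe (-0.60), the endothelin receptor gene Ednrb (-0.60), Ndrg2 (-0.42) and the glutamate transporter gene Slc1a2 (-0.33) were negative at an unadjusted p under 0.05. The fatty acid binding protein gene Fabp7 of radial glia (0.88) and the inhibitor of differentiation gene Id3 (0.85) were positive at that level. Without litter 2 Ednrb stood at -0.30 and Slc1a2 at -0.21, without litter 1 Ednrb at -0.94 and Slc1a2 at -0.54, and Fabp7 at 0.55 without litter 3 and 1.34 without litter 4. Apoe was negative on all 8 arrays, from -1.64 in litter 2 to -0.02 in litter 1, both with control RNA in Cy5.

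Among interneuron genes, the neuropeptide genes Sst (0.60), Cck (0.57) and Npy (0.31) were positive at an unadjusted p under 0.05 and the GABA synthesis gene Gad1 was negative (-0.37), out of 18 tested. Cck, which excitatory neurons also express, had 0.24, 0.27, 0.61 and 1.07 with staggerer RNA in Cy5 and 0.21, 0.12, 0.56 and 1.49 with control RNA in Cy5. It was positive on all 8, and the swapped arrays of each litter lay close together, with litter 4 highest. Its mean was 0.34 without litter 4 and its limma adjusted p 0.290. Npy stood at 0.50 without litter 1 and 0.21 without litter 3. Presynaptic genes had 3 negative members at that level, Sncb, Syt4 (-0.64) and Syt1 (-0.58), which encode vesicle proteins, and 0 positive, out of 23. Syt4 changed sign with the dye assignment, at -1.47 with staggerer RNA in Cy5, against 0.19 with control RNA in Cy5. The list of RORα targets held genes of Purkinje cells and also genes of lipid metabolism such as Apoa1. In it 3 of 18 were negative at that level and 0 were positive. The 3 were the lipid-sensing receptor gene Ppara (-0.72, limma adjusted p = 0.0729), Calb1 (-0.55) and Ybx3 (-0.27, and -0.18 without litter 4). The Purkinje cell genes Pcp2 (-0.12), Slc1a6 (-0.12), Itpr1 (0.14) and Shh (0.13) were not past that level.

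Of 9994 features with a value on all 8 arrays, 114 (1.14%) had the same sign on all of them, 53 positive and 61 negative. Beside those above, the named positive ones were the homeobox gene Hoxd12 (0.64), the tubulin gene Tuba1b (0.77), the noncoding RNA Snhg12 (0.48), Sccpdh (0.56), the small GTPase gene Rap2b (0.45), the kinase gene Aatk (0.48), Atrnl1 (0.44), the platelet glycoprotein gene Gp1bb (0.45) and Ndrg4 (0.51). The named negative ones were Rpain (-0.55), Eif2s3x (-0.51), L3mbtl3 (-0.56), the vomeronasal receptor gene Vmn1r17 (-0.52), the intermediate filament gene Synm (-0.45) and Dph2 (-0.45). Eif2s3x, which encodes a translation initiation factor and escapes X inactivation, is known for a higher level in females. Xist was negative too, while the other sex-linked genes tested, Kdm5c (-0.12), Kdm5d (0.15) and Uty (0.07), did not reach an unadjusted p under 0.05. The 15 genes named here for the same sign on all 8 arrays did not pass limma after adjustment. Their adjusted p values were 0.0755 for Hoxd12 and above 0.13 for the others. Without litter 1 Tuba1b stood at 0.50 and Ndrg4 at 0.33.

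Read as Cy5 over Cy3, 253 of 16521 features (1.53%) passed limma at an adjusted p under 0.05, 55 positive (0.333%) and 198 negative (1.20%), and 211 of them had a symbol. A total of 237 of the 253 had opposite signs in the means of the dye assignments, while 46.5% of all features had the same sign in them. The calls were made on the difference of the assignments, so opposite signs are in part built into them. Of 9994 features with all 8 values, 276 (2.76%) had the same sign on every array after turning, 97 positive and 179 negative. The median SD between litters over all features was 0.201, against 0.208 as deposited. The Rora probe stood at -0.13 and did not pass (adjusted p = 0.755).

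**Figure D4:**
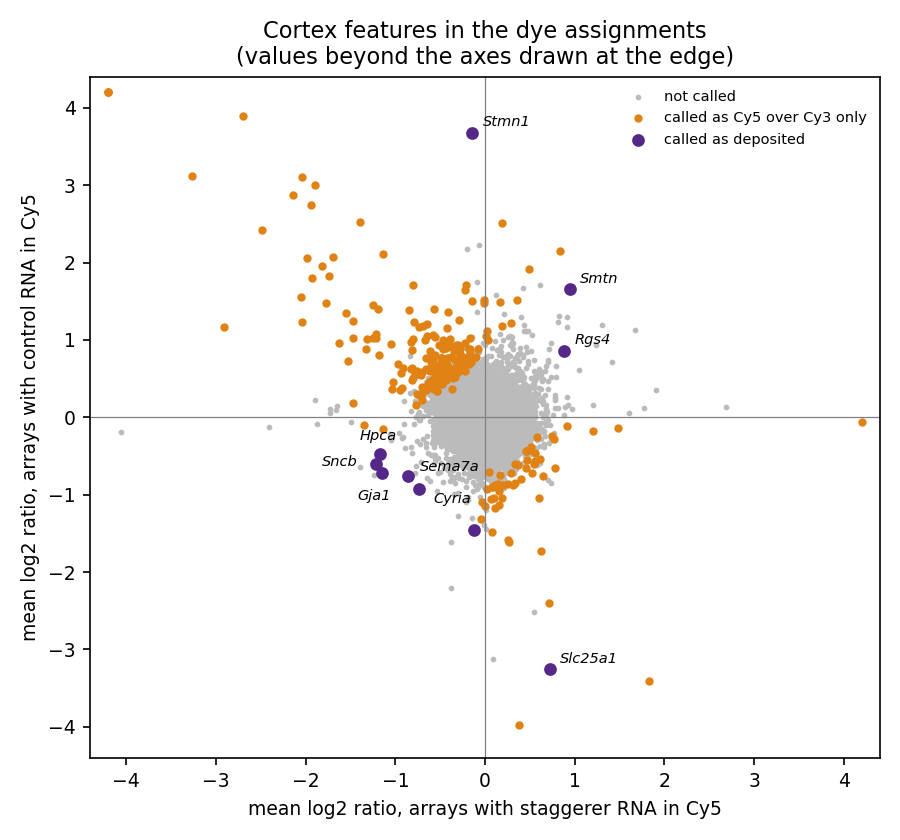
Mean log2 ratio as deposited of each cortex feature on arrays with staggerer RNA in Cy5 (horizontal axis) and on the swapped arrays, with control RNA in Cy5 (vertical axis), with features called in either reading in colour. Features called as deposited lie mostly where both means have the same sign, apart from Slc25a1 and Stmn1, and features called as Cy5 over Cy3 lie mostly where the signs are opposite.

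Under this reading the called ratios reached larger sizes, with 49 over 1 in size. Cited4, a transcriptional cofactor gene, had -4.86, -8.11 and -8.99 in litters 1, 3 and 4 with staggerer RNA in Cy5, against 5.92, 5.80, 6.85 and 3.39 in litters 1 to 4 with control RNA in Cy5. The assignments were far apart on every array, and the ratio was -6.35 ± 1.05 (SD, n = 3; limma adjusted p = 8.13e-11). Arhgef40 stood at -5.77 ± 1.46 (SD, n = 3; adjusted p = 4.29e-09) and Uhrf2, which encodes a reader of modified DNA, at -3.30 ± 0.46 (SD, n = 4; adjusted p = 8.13e-11). Uhrf2 had -3.58, -2.24, -2.49 and -2.46 with staggerer RNA in Cy5, against 3.86, 3.61, 4.83 and 3.29 with control RNA in Cy5. Il6st, the shared receptor subunit gp130 of interleukin 6 cytokines, stood at -2.45 ± 0.45 (SD, n = 3; adjusted p = 2.43e-08).

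Positive ratios under this reading included the olfactory receptor gene Olfr1408 (3.64), the galanin receptor gene Galr3 (2.62), Pigt, of the machinery that attaches lipid anchors (2.18), Slc25a1 (2.11) and Itm2a (1.56). Galr3 had 0.90, 3.45, 2.96 and 0.003 with staggerer RNA in Cy5, against -4.77, -3.06, -1.17 and -4.64 with control RNA in Cy5. The assignments did not overlap, and the limma adjusted p was 3.55e-09. Olfr1408 rested on single arrays, with 4.36, 12.5 and 0.06 in litters 2 to 4 with staggerer RNA in Cy5, against -0.30, 0.22 and -0.50 with control RNA in Cy5 (adjusted p = 0.00366).

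Among the list members called under this reading, Homer1, a scaffold gene of excitatory synapses, had -0.73, -0.64, -0.66 and -1.01 with staggerer RNA in Cy5, against 1.03, 0.65, 0.33 and 0.39 with control RNA in Cy5. The signs were opposite in every litter, and the ratio was -0.68 ± 0.16 (SD, n = 4; limma adjusted p = 0.00188). The G protein subunit genes Gnao1 (-0.80, adjusted p = 0.000847) and Gnb1 (-0.46, 0.0397), the vesicle gene Syt4 (-0.83, 0.00388), the guidance gene Sema3f (-0.68, 0.0105), Stmn1 (-1.91, 3.81e-07) and the intermediate filament gene Des (-0.55, 0.0268) were the other list members called, all negative. Layer 4 genes had a median of 0.05 with 0 of 12 called, upper layer genes 0.01 with 0 of 14 called, and ribosomal protein genes -0.01 with 0 of 62 called, where all features had a median of 0.01. At an unadjusted p under 0.05 these lists had 0, 2 and 2 positive and 1, 1 and 4 negative members by limma, against 5.84% positive and 7.09% negative of all features. Immature neuron genes had 1 positive and 9 negative of 32 at that level, presynaptic genes 1 and 7 of 23, and actin and Rac regulators 2 and 9 of 40. Sema7a, Hpca, Gja1, Cyria and Rgs4, called as deposited, were not called here, at -0.09, -0.35, -0.22, 0.09 and 0.01.

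Cortex was then set against VB. Tissue and labelling method coincide, since the cortex RNA was labelled through aminoallyl groups after reverse transcription and the VB RNA was amplified before labelling, so tissue and method cannot be told apart. As deposited, 12 of 12178 features (0.0985%) passed limma for cortex minus VB, 2 positive and 10 negative. Of the genes called in cortex, 4 were among them. Smtn stood at 1.59 in cortex and -0.03 in VB (difference 1.62; limma adjusted p = 0.00308), and Sema7a at -0.84 and -0.08 (difference -0.76; adjusted p = 0.0309). Cyria stood at -0.83 in cortex and 0.01 in VB (difference -0.85; adjusted p = 0.0468) and Slc25a1 at -1.14 and 0.22 (difference -1.37; adjusted p = 0.0309). With litter as a replicate block 16 features passed, 9 of them among the 12, and Cyria (adjusted p = 0.0659) and Slc25a1 (0.209) did not. Without litter 1 there were 0 calls, with 377 features at an unadjusted p under 0.05, and without each of the other litters there was 1.

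**Figure D5:**
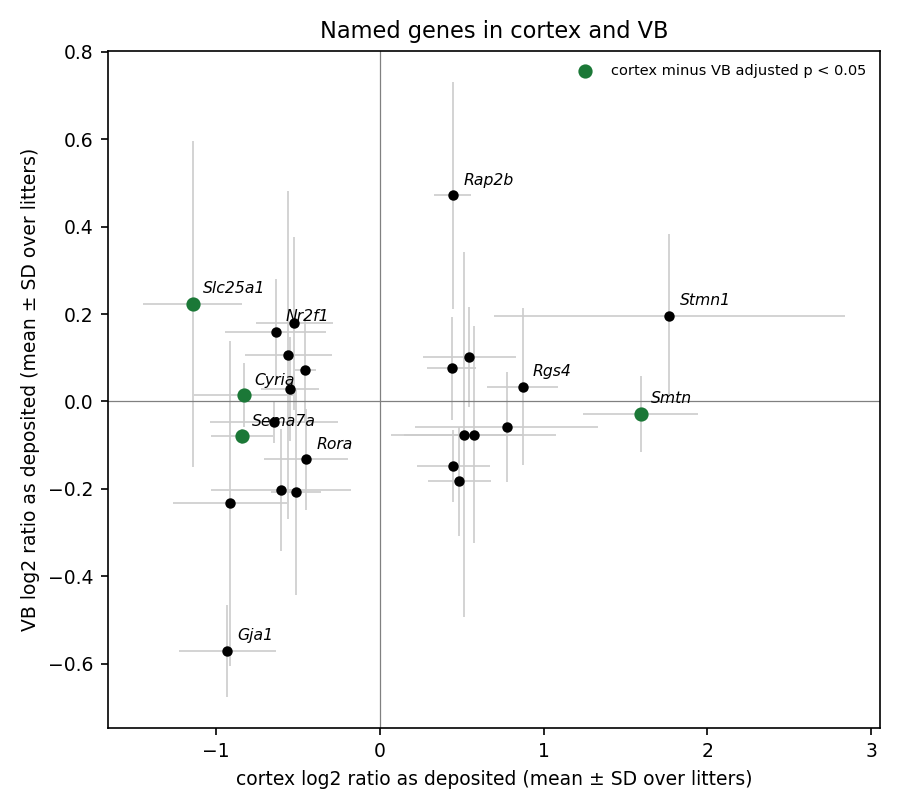
Log2 ratios as deposited in cortex (horizontal axis) and VB (vertical axis) for named genes measured in both, as means with the SD over litters as bars. Genes with a cortex minus VB adjusted p under 0.05 are green. Under this reading Gja1 is negative in both tissues, at -0.93 in cortex and -0.57 in VB, while Sema7a, Cyria and Smtn lie near 0 in VB.

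As deposited, Gja1 was negative in both, at -0.93 in cortex and -0.57 in VB (SD 0.11, n = 4; limma adjusted p = 0.00868 in VB). Of the 9 called cortex features tested in VB, it was the gene also called there. Its cortex minus VB difference was -0.36 (limma adjusted p = 0.483). Of all 12178 features tested in both tissues, 36 were called in VB. Rora had -0.45 in cortex and -0.13 in VB (adjusted p of the difference 0.547), and Nr2f1 -0.64 and 0.16 (0.0813). Medians of the layer 4 list were -0.25 in cortex and 0.01 in VB, and of ribosomal proteins 0.13 and -0.06.

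As Cy5 over Cy3, the cortex minus VB test called 455 of 12178 features (3.74%). Of the 253 features called in cortex, 186 were tested in VB, and 111 had the same sign there (59.7%, against 54.95% of all features). Of the 186, 85 were called in VB, 66 of them in the same direction, while 2026 of all 12178 features were called there. Of the called cortex features with a size over 1 and tested in VB, 37 of 40 had the same sign. Of these 40, 35 were called in VB in the same direction. Cited4 had -6.35 in cortex and -4.11 in VB, Arhgef40 -5.77 and -4.59, Uhrf2 -3.30 and -2.06, and Homer1 -0.68 and -0.76. Galr3 was at 2.62 in cortex and 0.04 in VB, and Stmn1 at -1.91 and 0.51. Gja1 had opposite signs under this reading, at -0.22 in cortex, where it was not called, and 0.41 in VB (limma adjusted p = 0.00676 in VB). Its cortex minus VB difference was -0.63 (limma adjusted p = 0.0163). Cyria, near 0 in VB as deposited, stood here at 0.09 in cortex and -0.77 in VB (limma adjusted p = 6.01e-05 in VB). Its cortex minus VB difference was 0.87 (limma adjusted p = 0.00479). Smtn stood at -0.06 in cortex and 0.31 in VB (limma adjusted p = 0.0220 in VB), and Sema7a at -0.09 and 0.14 (0.166 in VB). Whether a dye effect of the probes has a part in the ratios shared by the tissues was not tested.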

How the data were processed

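Per the labels, each array held staggerer and control RNA of a litter in Cy3 and Cy5. The deposited values are the authors' normalized log2 ratios (base assumed); the sources used here do not give background correction, normalization, spot filter or numerator, and with no channel intensities no filter on dim probes was made. Probes were named through the platform annotation and RefSeq (20369 of 24107 with 1 symbol, 3738 with none), and probes of a symbol were averaged. Per litter, the swapped pair was averaged (as deposited) or its difference divided by 2 taken (Cy5 over Cy3). A mean of 0 was tested with limma 3.58.1 in R 4.3.3 (lmFit, eBayes, two-sided) over features with at least 3 litters, with Benjamini-Hochberg adjustment over all features and a threshold of 0.05. Cortex minus VB used the litter values of both tissues. The functions were tested on simulated data. The labels do not say whether an RNA came from one animal or several, so p-values measure the spread between litters. The number of arrays limits the precision.

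The members, lists and rules were chosen with earlier results of these data known. Named were all called genes with a symbol (at most 15 per sign and reading), then genes with the same sign on all 8 arrays up to 15 per sign, members of each list called in either reading or with its 2 smallest p, and Rora. Other list members named by an unadjusted p under 0.05 were chosen after their values were seen, as were Kdm5d, Uty and Eif2s3y. Alternatives were normalization, limits on extreme values, minimum litters, robust eBayes, litter as a replicate block, unpaired arrays, separate probes, single dye assignments, a dye term and leaving out litters. The litter numbers pair the arrays by label; the correlation of deviations of swapped arrays had a mean of 0.0575.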

Additional observations from a re-analysis of the deposited data

Results flagged for a closer look

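In 4 of the 76 named genes and readings with 4 litter values, 1 litter stood apart from the other 3, read as deposited. Chance flags about 1 in 20 groups in this way. The collagen gene Col1a2 had -0.32 in litter 4, against -0.75 to -0.68 in the others. The small GTPase gene Rap2b had 0.28 in litter 2, against 0.49 to 0.52. The GABA-B receptor gene Gabbr1 had -0.80 in litter 4, against -0.35 to -0.31. The growth signalling GTPase gene Rheb had -0.94 in litter 1, against -0.18 to -0.03.

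For 5 named genes the ratio as deposited differed between the tissues by limma. Cortex minus VB was 1.62 for Smtn, -1.37 for Slc25a1, -0.76 for Sema7a, -0.85 for Cyria and -0.92 for Ppara, which had -0.72 in cortex and 0.20 in VB (limma adjusted p = 0.0309).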

How the results depend on the processing

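As deposited, against 10 calls, there were 18 with at least 2 litters, 3 with litter as a replicate block, 16 with probes apart and 19 with a dye term. With unpaired arrays kept there were 2, and 0 of these were among the 10. There were 95 with staggerer RNA in Cy5 alone (9 positive, 86 negative) and 152 with control RNA in Cy5 alone (114 positive, 38 negative). Leaving out a litter gave 0 to 98, with 63 positive and 35 negative without litter 4. As Cy5 over Cy3, against 253, leaving out a litter gave 124 to 205, and the others gave 201 to 364. For cortex minus VB, leaving out a litter gave 0 to 1 as deposited, against 12, and 117 to 230 as Cy5 over Cy3, against 455. Signs as deposited reversed with staggerer RNA in Cy5 alone for Slc25a1 (0.72), Stmn1 (-0.14), Sqle (-0.15), Abi2 (-0.047), Gnaq (-0.089), Des (-0.28), Gnb1 (-0.25), Bnip2 (-0.13), Gnao1 (-0.56) and Sema3f (-0.45). They reversed with control RNA in Cy5 alone for Syt4 (0.19), Ldb2 (-0.034) and Homer1 (0.60), and for Gnao1 also without litter 4, where leaving out a litter gave -0.030 to 0.43. The cause was not tested. Of the values of single named genes under an alternative, 1357 kept direction and side of the threshold, 73 lost the call, 24 gained it and 14 reversed. Leaving out litters also lowers the number of features tested, to between 10994 and 12070. Signal over background is unknown.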

Other observations

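Genes with no part in the lists that lead the text were also measured. Oxidative phosphorylation genes had a median of -0.02 over 58 tested as deposited. At an unadjusted p under 0.05 there were 5 negative members and 1 positive, among them the cytochrome oxidase gene Cox6c (-0.43) and the ATP synthase gene Atp5a1 (-0.39). Without litters 1, 2, 3 and 4 in turn the list median was -0.14, 0.008, 0.03 and -0.07. Without litter 2 there were 4 positive and 2 negative members at that level. The sodium pump subunit gene Atp1b1 stood at -0.62 and its regulator Fxyd7 at -0.42, with 5 of 6 pump genes negative. Cell cycle genes had a median of 0.02 over 26 tested, with Mki67 at 0.62 (limma adjusted p = 0.292). Activity-regulated, microglia and subplate genes had 0 members at an unadjusted p under 0.05 in either direction, out of 21, 11 and 10 tested, and 0 called by limma as deposited.

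The BMP ligand gene Bmp7 had the most negative mean of any feature in cortex as deposited, -2.86 ± 4.98 (SD, n = 3; limma adjusted p = 0.574). It rested on 1 array, that of litter 2 with staggerer RNA in Cy5, at -16.98, and the other litter values were 0.16 and -0.14.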
